A study of Homo sapiens with 12 samples.

Results

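The TEC family is a group of non-receptor tyrosine kinases of blood cells and endothelium, read here from the rows of the count table that carry the symbols BTK, TEC, TXK and BMX, 4 of the 43735 genes listed. BTK, TEC and TXK had enough reads to be among the 14085 genes tested, and BMX did not. RNA was sequenced from MM1S and MM1R, human multiple myeloma cell lines that stem from the same patient, of which MM1S is sensitive and MM1R resistant to glucocorticoids (GC). Each line was left untreated or was given 1 µM withaferin A (WA), a plant steroidal lactone, for 3 h, with 3 cultures in each of the 4 groups. The MM1S cultures were of passages 16, 22 and 23 and the MM1R cultures of passages 4, 6 and 7, with the same passages in the untreated and the WA arm. Whether the untreated cultures received the solvent of WA is not given in the sources used here. Each state of GC response was represented by 1 line, so GC response, cell line and passage range cannot be told apart in any comparison of MM1R with MM1S.

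BTK, Bruton's tyrosine kinase, relays signals from the B-cell receptor: SRC and SYK family kinases and the adaptor BLNK bring it into play, PI3K makes the membrane lipid that its PH domain binds, and it then phosphorylates phospholipase C gamma, which opens the calcium-NFAT and the PKC-NF-kB branches. TEC is expressed in many blood lineages and overlaps with BTK in B cells, TXK (also called RLK) serves the T-cell receptor in T and NK cells, and BMX (also called ETK) is known from endothelial and myeloid cells. The family shares a cysteine at the edge of the ATP pocket, in the position called hinge-6, to which covalent inhibitors such as ibrutinib bind.

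The shared cysteine is shown here because it defines which other kinases were set beside the family. An alignment of the translated reading frames of BTK, TEC, TXK and BMX had 1 column at which glycine was followed by cysteine in all 4 kinases. The stretches below run 5′ to 3′ along the coding strand, 57 bases each, with the cysteine codon in capitals, and were read from the GENCODE transcripts of GRCh37.
BTK: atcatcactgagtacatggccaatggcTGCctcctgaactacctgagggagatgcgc
TEC: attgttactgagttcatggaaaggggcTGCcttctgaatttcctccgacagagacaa
TXK: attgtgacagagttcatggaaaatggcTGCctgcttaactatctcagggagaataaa
BMX: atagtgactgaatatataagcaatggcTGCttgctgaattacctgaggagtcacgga

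All 4 used the codon TGC. It was codon 481 of 659 in BTK (exon 15, chrX:100611163-100611165), codon 449 of 631 in TEC (exon 14, chr4:48147219-48147221), codon 350 of 527 in TXK (exon 11, chr4:48082052-48082054) and codon 496 of 675 in BMX (exon 15, chrX:15560196-15560198). Over these 57 bases, BTK was identical to TXK at 71.9% and to TEC and BMX at 66.7% of positions, and TEC to TXK at 73.7%. No run of 50 bases, the length of 1 read, was shared between any pair of the 4 transcripts, and the longest shared run was 20 bases. Their exons overlapped no exon of another gene in the annotation.

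Each library held 17625110 to 19368343 counted reads, so that 3 reads, the limit that a count of 0 allows, correspond to 0.149 to 0.183 CPM, the read count scaled to library size (with TMM factors). Such limits cover counting error only. The labels were checked with NR3C1, the glucocorticoid receptor, at 112 ± 34.5 CPM in untreated MM1S and 14.5 ± 0.523 CPM in untreated MM1R (SD, n = 3 each), and with HMOX1, a gene of the electrophile response, at 10.9 ± 2.06 and 19.0 ± 6.10 CPM without WA and at 1316 ± 802 and 1864 ± 1020 CPM with WA. HSPA1A, a heat shock gene with a near-identical copy, was listed at 0 in all 12 libraries. All 9 plasma cell markers were present in every group, with a summed level of 9948 to 12350 CPM in MM1S and 13210 to 18690 CPM in MM1R. Of the other cell types, 3 of 7 B cell markers exceeded 3 reads in at least 1 library of each group, and of the CD3 chains of the T-cell receptor CD3G was at 0 in all libraries while CD3E had 63 to 211 reads. The MM1S cultures of passage 16 stood apart from those of passages 22 and 23, with correlations across tested genes of 0.987 and 0.988 untreated and 0.985 and 0.983 with WA, against 0.996 and 0.993 between passages 22 and 23. The MM1R cultures of passages 4 and 7 were at 0.986 untreated and 0.988 with WA. Results that move without the passage 16 cultures are given with and without them, an alternative chosen after the data had been seen.

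BTK differed most between the lines. In untreated MM1S it had 211, 155 and 156 reads in passages 16, 22 and 23, or 10.9, 8.01 and 7.76 CPM. In untreated MM1R it had 1289, 1152 and 1053 reads in passages 4, 6 and 7, or 67.1, 63.2 and 61.4 CPM. The lowest MM1R culture thus lay far above the highest MM1S culture, and the MM1R cultures varied little among themselves, with a coefficient of variation of 4.56% against 19.8% in MM1S. With WA, BTK had 95, 147 and 103 reads in MM1S (5.15, 7.85 and 5.62 CPM) and 844, 873 and 672 reads in MM1R (45.02, 49.1 and 40.9 CPM), in the same order of passages. Ordered by mean level, MM1S with WA came first (6.21 ± 1.44 CPM), then untreated MM1S (8.90 ± 1.77 CPM), MM1R with WA (45.01 ± 4.12 CPM) and untreated MM1R (63.9 ± 2.92 CPM). The MM1S groups overlapped, by the cultures of passages 22 with WA and 23 without, and the other neighbours in this order did not overlap. In bulk RNA, a lower level in each cell and a smaller share of expressing cells cannot be told apart.

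**Figure D1:**
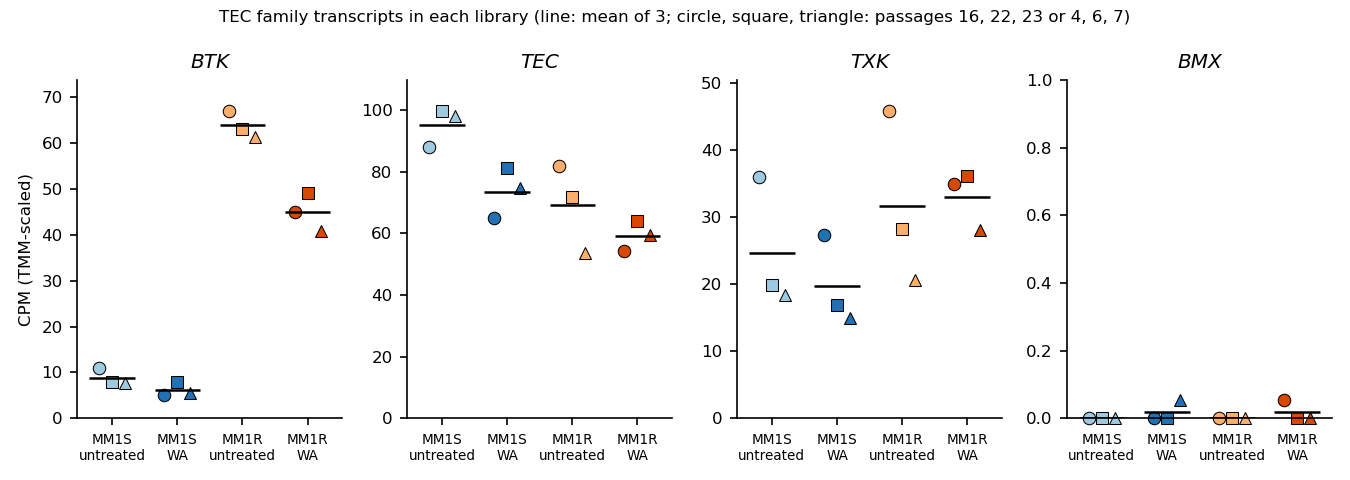
Level of BTK, TEC, TXK and BMX in each of the 12 libraries, in CPM scaled by TMM, by line and treatment. Points are cultures, marked by passage, and lines are group means. BTK lies between 5.15 and 10.9 CPM in the MM1S libraries and between 40.9 and 67.1 CPM in the MM1R libraries, while the levels of TEC and TXK in the 6 libraries of a line overlap those in the other line and BMX is at or near 0.

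The estimated gap between the lines was similar in both arms. Untreated, BTK was 7.18-fold higher in MM1R (log2 fold change 2.84, 95% interval 2.48 to 3.21, adjusted p = 1.7e-07, quasi-likelihood test of edgeR, Benjamini-Hochberg adjusted over all genes tested), and with WA it was 7.24-fold higher (log2 2.86, 95% interval 2.48 to 3.23, adjusted p = 1.91e-07, same edgeR test). Genes were called between the lines by an adjusted p under 0.01 together with a fold change of at least 1 in log2 size, and by these limits 2.97% of the genes tested were called untreated (1.48% higher and 1.49% lower in MM1R) and 3.04% with WA (1.63% higher and 1.41% lower). BTK was the 1 of the 3 tested members called, in both arms. Without both passage 16 cultures the log2 fold change was 3.02 untreated and 2.73 with WA. Beside this gap, none of the 9 plasma cell markers was called (median log2 fold change 0.29). Their sum was 10920 to 12270 CPM in untreated MM1S and 17000 to 18690 CPM in untreated MM1R, most of it JCHAIN (6435 ± 790.4 and 12000 ± 947.5 CPM), while CD38 was at 91.3 ± 32.6 and 44.5 ± 4.51 CPM (SD, n = 3). Without both passage 16 cultures, CD38 was the only plasma cell marker called. It was lower in MM1R untreated (log2 -1.30, adjusted p = 1.57e-05) and with WA (log2 -1.13, adjusted p = 5.77e-05, same edgeR test). In untreated MM1S and MM1R the summed B cell markers were at 59.2 to 63.6 and 39.0 to 52.6 CPM. The part of either list in the result was not tested.

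TEC, in contrast, was the more abundant in MM1S. Untreated MM1S held 1700, 1932 and 1973 reads in passages 16, 22 and 23 (88.1, 99.8 and 98.1 CPM), and untreated MM1R held 1572, 1310 and 921 reads in passages 4, 6 and 7 (81.8, 71.9 and 53.7 CPM). Every untreated MM1S culture lay above every untreated MM1R culture, though the lowest of the former and the highest of the latter were close. The log2 fold change was -0.46 (95% interval -0.77 to -0.15), which was not called (adjusted p = 0.0515, quasi-likelihood test of edgeR). With WA the difference was -0.31 on the log2 scale (95% interval -0.62 to -0.0049, adjusted p = 0.172, same edgeR test), and the interval of either difference excludes a change of 1 in size. In MM1R, passage 4 was the highest untreated culture and the lowest with WA.

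TXK varied more between cultures of a group than either. Untreated MM1S had 693, 383 and 370 reads in passages 16, 22 and 23 (35.9, 19.8 and 18.4 CPM), and untreated MM1R had 880, 514 and 354 reads in passages 4, 6 and 7 (45.8, 28.2 and 20.6 CPM). Passage 16 was the highest MM1S culture in both arms, at 27.3 CPM with WA against 16.8 and 15.0 CPM in passages 22 and 23. With WA, MM1R had 653, 642 and 462 reads in passages 4, 6 and 7 (34.8, 36.1 and 28.1 CPM), so the groups with WA did not overlap while the untreated groups did. The residual SD of TXK within groups was 0.456 on the log2 scale, above that of 94.0% of the genes tested, against 0.21 for BTK (50.2%) and 0.191 for TEC (42.5%). The difference between the lines was 0.36 (95% interval -0.30 to 1.01) untreated and 0.74 (95% interval 0.08 to 1.41) with WA on the log2 scale, with adjusted p = 0.5 and 0.133 by the same edgeR test. Without both passage 16 cultures these differences were 0.72 (adjusted p = 0.0619) and 1.05 (adjusted p = 0.00969), so that TXK was then called higher in MM1R with WA. The summed T and NK cell markers were at 5.29 to 9.25 CPM in untreated MM1S and 7.97 to 13.3 CPM in untreated MM1R, with 3 and 4 of 9 markers above 3 reads. CD3E made up most of this sum, at 5.66 ± 2.17 and 9.52 ± 2.95 CPM (SD, n = 3, log2 0.75, adjusted p = 0.116, same edgeR test), and CD3D, CD3G and NKG7 were at 0 in both untreated groups. The part of these markers in the result was not tested.

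BMX was read in 2 libraries, with 1 read each in MM1S of passage 23 and MM1R of passage 4, both with WA, and had 0 reads in the other 10. No difference in BMX was detectable at this depth.

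Levels of different kinases were set side by side only per length, as RPKM, the CPM divided by the kilobases of the longest coding transcript. In untreated MM1S, TEC was at 26.0 ± 1.73, TXK at 8.49 ± 3.35 and BTK at 3.22 ± 0.638 RPKM (SD, n = 3). In untreated MM1R, BTK was at 23.1 ± 1.05, TEC at 18.9 ± 3.90 and TXK at 10.9 ± 4.44 RPKM. BTK thus went from percentile 35.2 in MM1S to percentile 76.3 in MM1R among 12599 genes ranked by RPKM, and TEC from 78.9 to 72.0. BTK made up 7.8% to 9.79% of the summed family RPKM in untreated MM1S and 38.9% to 50.5% in untreated MM1R, and 6.42% to 9.2% and 36.3% to 37.8% with WA. The ratio of BTK to TEC was 0.105 to 0.164 in untreated MM1S, 0.0997 to 0.128 in MM1S with WA, 1.085 to 1.51 in untreated MM1R and 0.91 to 1.1 in MM1R with WA. The ratio separates the lines at either gene length, but which of the kinases leads in MM1R depends on it: over the union of all annotated exons (7817 bases for BTK against 2767 in its longest coding transcript), the mean log2 ratio in untreated MM1R was -1.06 in place of 0.31.

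**Figure D2:**
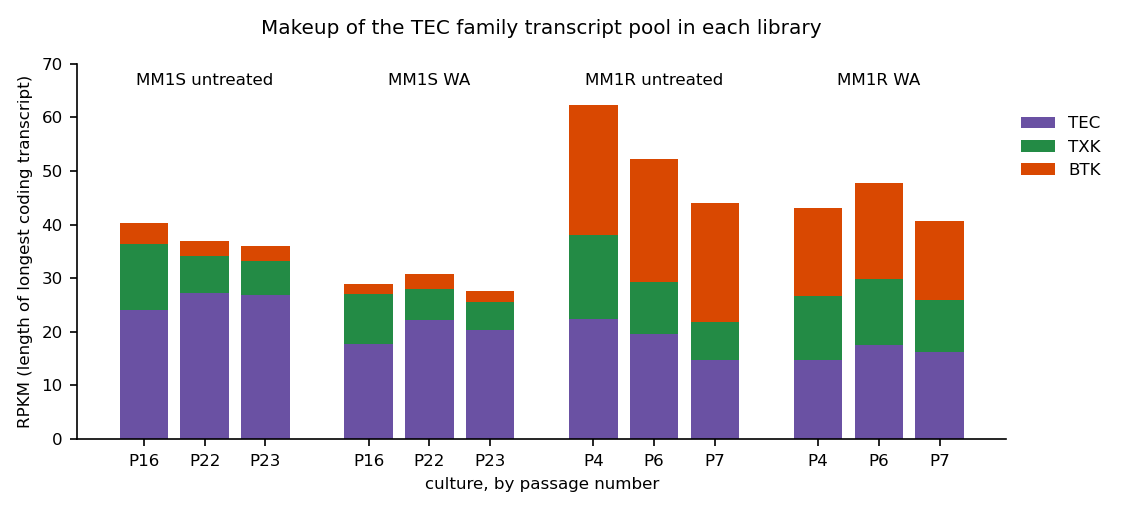
Stacked RPKM of TEC, TXK and BTK in each library, by group and passage, over the longest coding transcript of each gene, with BMX left out as too low to draw. Bars are single cultures. The summed level was 37.8 ± 2.32 RPKM in untreated MM1S and 52.8 ± 9.22 RPKM in untreated MM1R (SD, n = 3), and BTK fills 38.9% to 50.5% of the untreated MM1R bars against 7.8% to 9.79% of the untreated MM1S bars.

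WA was compared with no treatment within each line. At an adjusted p of 0.05, the limit used for WA, 14% of the genes tested were called in MM1R (7.55% higher and 6.46% lower with WA) and 10.5% in MM1S (6.25% higher and 4.23% lower). Since cultures of the same passage deviated together, the fit with passage as a block is given beside each result whose call it changes. That fit called 29.1% of the genes in MM1R and 24.1% in MM1S.

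Every one of the 6 same-passage pairs held less BTK with WA. In MM1R the log2 change was -0.57, -0.36 and -0.58 in passages 4, 6 and 7, a mean of -0.50 ± 0.12 (SD, n = 3 pairs), and BTK was called (log2 fold change -0.51, 95% interval -0.84 to -0.17, adjusted p = 0.0439, edgeR's quasi-likelihood test). In MM1S the pairs were at -1.02, -0.03 and -0.43 in passages 16, 22 and 23, so that 1 pair hardly changed and 1 carried most of the mean of -0.49 ± 0.50 (SD, n = 3 pairs). The fitted change in MM1S was -0.52 (95% interval -0.89 to -0.14), not called without the block (adjusted p = 0.0751) and called with it (adjusted p = 0.0409, same edgeR test). Without both passage 16 cultures it was -0.23 (adjusted p = 0.531, same edgeR test). In MM1R the adjusted p was 0.0141 with the block. The MM1R call was lost in 8 of 12 fits that left out 1 library, with log2 fold changes from -0.56 to -0.42 and adjusted p from 0.0224 to 0.163 over those 12 fits (same edgeR test). The libraries whose omission ended it are untreated MM1R of passages 4, 6 and 7 (adjusted p = 0.0875, 0.104 and 0.0802), MM1R with WA of passages 4, 6 and 7 (0.108, 0.0693 and 0.163), untreated MM1S of passage 22 (0.0569) and MM1S with WA of passage 23 (0.0523, all by edgeR).

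TEC was lower with WA in all 3 MM1S pairs and in 2 of 3 MM1R pairs. The MM1S pairs were close together, at -0.44, -0.30 and -0.39 in passages 16, 22 and 23 (mean -0.37 ± 0.07, SD, n = 3 pairs), and the MM1R pairs ran from -0.59 in passage 4 over -0.17 in passage 6 to 0.15 in passage 7. In MM1S the fitted change was -0.37 (95% interval -0.68 to -0.06), not called without the block (adjusted p = 0.117) and called with it (adjusted p = 0.0332, edgeR's quasi-likelihood test). In MM1R it was -0.22 (95% interval -0.53 to 0.08, adjusted p = 0.343, and 0.211 with the block, same edgeR test).

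TXK changed with WA by -0.39, -0.23 and -0.28 on the log2 scale in the MM1S pairs of passages 16, 22 and 23, and by -0.39, 0.35 and 0.44 in the MM1R pairs of passages 4, 6 and 7. Its fitted changes, -0.32 in MM1S (adjusted p = 0.581) and 0.06 in MM1R (adjusted p = 0.93, edgeR's quasi-likelihood test), were smaller than their 95% half-intervals.

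**Figure D3:**
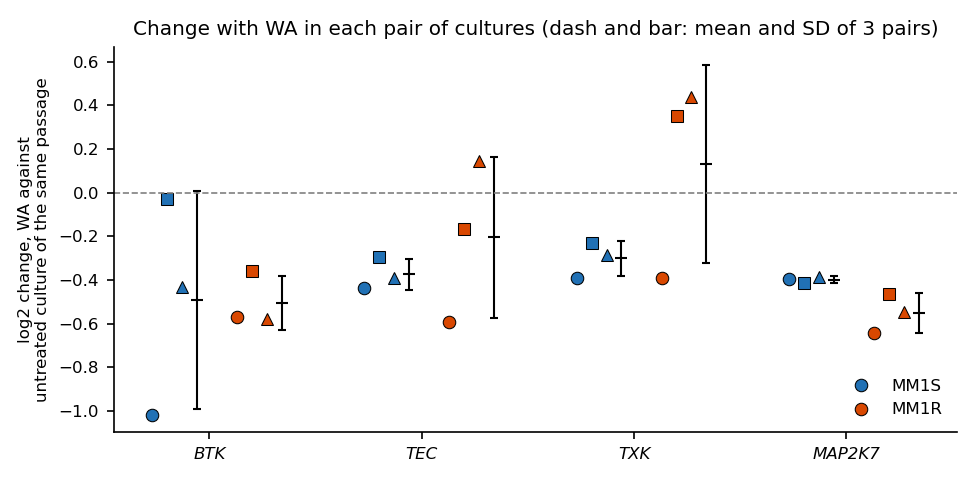
Change with WA in each pair of cultures of the same passage, on the log2 scale, for BTK, TEC, TXK and the hinge-6 kinase MAP2K7, in MM1S (blue) and MM1R (orange). Points are pairs, marked by passage, and dashes with bars are the mean and SD of 3 pairs. The BTK pairs lie between -1.02 and -0.03 in MM1S and between -0.58 and -0.36 in MM1R, and the TXK pairs of MM1R lie on both sides of 0.

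The test of whether WA acted differently in the 2 lines called none of the members. The difference, MM1R minus MM1S, was 0.01 for BTK (95% interval -0.47 to 0.50), 0.15 for TEC (95% interval -0.29 to 0.59) and 0.39 for TXK (95% interval -0.54 to 1.32) on the log2 scale, each with an adjusted p of 1 by edgeR's quasi-likelihood test. The interval for BTK leaves room for a difference of up to 0.50 in either direction. Over all genes this test called 0 by edgeR (97 at an unadjusted p under 0.05), 0 by edgeR with the block, 1 by DESeq2 and 6 by DESeq2 with the block.

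Other human kinases with the hinge-6 cysteine are BLK, JAK3, EGFR, ERBB2, ERBB4 and MAP2K7. With the members, 7 hinge-6 kinases were tested, and BMX, EGFR and ERBB4 were not, EGFR with at most 10 and ERBB4 with at most 6 reads per library. BTK was the 1 of the 7 called between the untreated lines (14.3%, against 2.97% of all genes tested). BLK, a SRC family kinase of B cells, had 0, 2 and 0 reads in untreated MM1S of passages 16, 22 and 23 and 19, 5 and 11 in untreated MM1R of passages 4, 6 and 7, at least 4.14-fold higher against 3 reads per MM1S library, and was not called (adjusted p = 0.0506, edgeR's quasi-likelihood test). A second entry of that symbol held 1 to 7 reads. JAK3, the kinase of the common gamma chain receptors, was at 5.36 ± 0.806 RPKM in untreated MM1S and 4.53 ± 0.666 RPKM in untreated MM1R, and ERBB2, a receptor kinase, at 1.05 ± 0.150 and 1.39 ± 0.0994 RPKM (SD, n = 3). MAP2K7, a kinase that activates JNK, was the most abundant of the group in every group of cultures, at 44.7 ± 1.80 and 47.7 ± 0.952 RPKM untreated and 33.9 ± 1.63 and 32.6 ± 2.41 RPKM with WA.

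With WA, MAP2K7 fell in both lines. Its log2 fold change was -0.55 in MM1R (95% interval -0.75 to -0.35, adjusted p = 0.00185) and -0.40 in MM1S (95% interval -0.60 to -0.20, adjusted p = 0.0156, edgeR's quasi-likelihood test), and it was lower in all 6 pairs. Its MM1S call was lost without both passage 16 cultures (-0.40, adjusted p = 0.0711, same edgeR test). In that fit ERBB2 was called higher with WA than without it in MM1R (log2 0.60, adjusted p = 0.0346, same edgeR test). Between the lines with WA, that fit called ERBB2 higher in MM1R than in MM1S (log2 1.14, adjusted p = 0.00206, same edgeR test). BTK and MAP2K7 were the 2 of 7 tested hinge-6 kinases called lower in MM1R and MAP2K7 the 1 of 7 in MM1S. Of all genes tested, 6.46% were called lower in MM1R and 4.23% in MM1S. With the block, 3 were called lower in MM1R, adding JAK3 (-0.35, adjusted p = 0.0308), and 1 higher, ERBB2 (0.59, adjusted p = 0.0437, edgeR). In MM1S 3 were called lower with the block, adding BTK and TEC, and that fit called 29.1% of all genes in MM1R and 24.1% in MM1S in either direction. The median log2 fold change of the 7 kinases was -0.35 in MM1R and -0.32 in MM1S, against 0.01 for all genes tested in each line.

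Among the genes that act before TEC kinases (receptors, SRC and SYK kinases, BLNK and PI3K), 1 of the 18 tested was called between the untreated lines (5.56%, against 2.97% of all genes). CD79A, a signalling chain of the B-cell receptor, had 5, 2 and 3 reads in untreated MM1S of passages 16, 22 and 23 and 70, 62 and 38 in untreated MM1R of passages 4, 6 and 7 (log2 fold change 4.13, 95% interval 3.29 to 4.97, adjusted p = 1.95e-05, edgeR's quasi-likelihood test). Its partner CD79B was at 21.9 ± 7.75 CPM in untreated MM1S and 46.2 ± 4.85 CPM in untreated MM1R (SD, n = 3), and was called with WA (log2 1.23, adjusted p = 0.00595) but not untreated (log2 1.08, adjusted p = 0.0125, same edgeR test). Without both passage 16 cultures, CD79B and PIK3CD, a PI3K catalytic subunit, were called higher untreated too (log2 1.40 and 1.04). BLNK, the adaptor that joins BTK to SYK and phospholipase C gamma, was below the limit on the fold change (log2 0.87, adjusted p = 0.000288), as was SYK (log2 0.38, adjusted p = 0.022, same edgeR test). The median over the list was 0.14 untreated, against 0.01 for all genes.

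With WA, CXCR4, a chemokine receptor, and PIK3R1, the regulatory subunit of PI3K, rose in both lines, by 1.07 and 1.02 on the log2 scale in MM1R (adjusted p = 0.00325 and 0.00131) and by 0.86 and 0.74 in MM1S (adjusted p = 0.0132 and 0.0106, edgeR's quasi-likelihood test). PIK3CG, another PI3K catalytic subunit, fell in both, from 185.5 ± 25.9 to 100.5 ± 16.3 CPM in MM1R and from 156 ± 16.0 to 78.7 ± 3.61 CPM in MM1S (SD, n = 3, adjusted p = 0.00103 and 0.000528, same edgeR test). PIK3CD rose in MM1S (log2 0.92, adjusted p = 0.0384) and was at 0.62 in MM1R (adjusted p = 0.122, and 0.00589 with the block, same edgeR test). In all, 3 of 18 were called in MM1R (16.7%, against 14% of all genes) and 4 of 18 in MM1S (22.2%, against 10.5%). With the block these were 5, adding MYD88 (lower) and PIK3CD, and 6, adding CD79B and PIK3CB (both lower), against 29.1% and 24.1% of all genes. CXCR4 in MM1S was not called without both passage 16 cultures (log2 0.63, adjusted p = 0.103, same edgeR test).

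Of the 13 genes that restrain TEC kinases (phosphatases, inhibitory receptors, binding proteins and ubiquitin ligases), 10 were tested and none was called between the lines in either arm. INPP5D, the lipid phosphatase SHIP1, and the inhibitory receptors CD22 and CD72 had too few reads to be tested. SH3BP5, a protein that binds BTK and inhibits it, rose with WA in MM1R, from 3.28 ± 0.652 to 6.32 ± 0.805 CPM (SD, n = 3, log2 fold change 0.94, adjusted p = 0.0323, edgeR's quasi-likelihood test), and was at 0.21 in MM1S (adjusted p = 0.695). The test of the difference between the lines did not call it (log2 0.74, adjusted p of 1, same edgeR test).

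Of the 35 genes that act after TEC kinases, 34 were tested, and 2 were called higher and 2 lower in untreated MM1R (11.8%, against 2.97% of all genes). NFATC1, a calcium-dependent transcription factor, was at 7.16 ± 3.18 CPM in untreated MM1S and 29.0 ± 3.66 CPM in untreated MM1R, and PRKCD, a protein kinase C that diacylglycerol activates, at 30.0 ± 1.64 and 81.4 ± 3.65 CPM (SD, n = 3, adjusted p = 0.00405 and 3.82e-05, edgeR's quasi-likelihood test). VAV2, an exchange factor for small GTPases, was lower, at 20.5 ± 6.87 and 1.12 ± 0.219 CPM, and so was REL, a subunit of NF-kB (log2 fold changes -4.19 and -1.63, adjusted p = 1.64e-05 and 0.00489, same edgeR test). Without both passage 16 cultures REL was not called untreated (log2 -1.32, adjusted p = 0.0108 by edgeR). With WA, the same fit called REL lower in MM1R than in MM1S (log2 -1.31, adjusted p = 0.00853 by edgeR). In the fit of all 12 libraries, NFATC1, PRKCD and VAV2 were also called with WA, and REL was not. The direct substrate of BTK, PLCG2, was at 50.5 ± 1.22 and 50.2 ± 1.90 CPM untreated, and the list's median was -0.01.

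WA moved genes of both branches in both directions. NFKB1 fell by 0.77 in MM1R and by 0.65 in MM1S on the log2 scale, PRKCD by 0.86 and 0.64, and PLCG1, the phospholipase C gamma most widely expressed, by 0.36 and 0.48 (adjusted p from 0.00068 to 0.0166 over these 6 tests, edgeR's quasi-likelihood test). NFATC3 rose by 0.59 and 0.62 and BCL10, which activates MALT1, by 0.52 and 0.62 in the same order of lines (adjusted p from 0.0115 to 0.0358, same edgeR test). In total 9 of 34 were called in MM1R (4 higher, 5 lower, 26.5% against 14% of all genes) and 6 in MM1S (3 higher, 3 lower, 17.6% against 10.5%). With the block these were 18 (6 higher, 12 lower) and 14 (5 higher, 9 lower) of 34, against 29.1% and 24.1% of all genes. PLCG2 was among those called in MM1R with the block only (-0.30, adjusted p = 0.0324, edgeR). BCL10 and RASGRP1, which rose by 0.93 in MM1S, were not called in MM1S without both passage 16 cultures, with log2 fold changes of 0.60 and 0.87 (adjusted p = 0.0873 and 0.0667, same edgeR test).

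**Figure D4:**
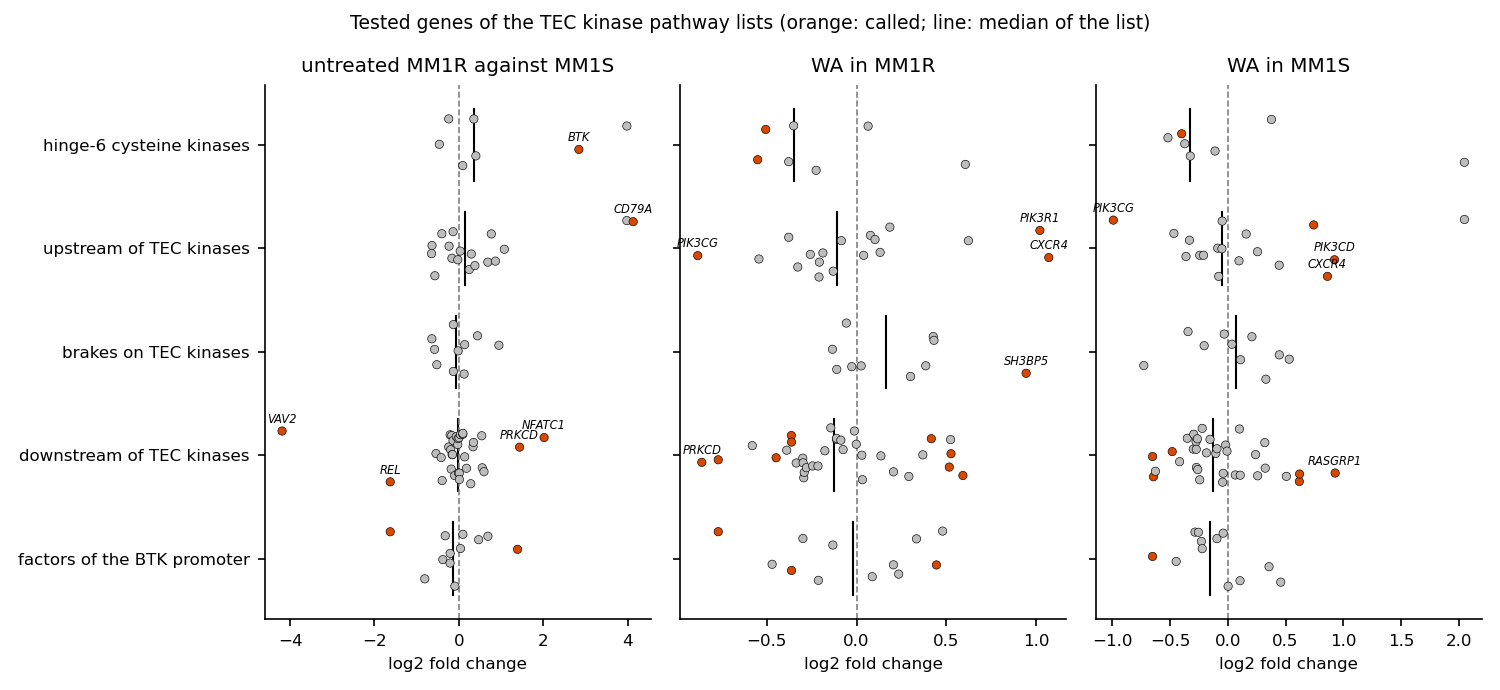
Log2 fold changes of the tested genes of the 5 pathway lists, for untreated MM1R against MM1S and for WA in each line, from edgeR. Points are genes, orange where called, with a random vertical offset, and lines are list medians. CD79A, BTK, NFATC1 and VAV2 lie farthest out among the called genes between the lines, and the grey point near 4 in the upper rows is BLK, which rests on 0 to 19 reads per untreated library.

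The start sites of the tested members are shown because BTK, TEC and TXK differ in them and because 12 transcription factors of the BTK promoter were followed. The sequences are the 250 bases before the RefSeq start of each gene (GRCh38.p14, minus strand, 5′ to 3′), for BTK the one of its starts that does not face RPL36A. Capitals mark matches on either strand to 5 motifs: the GC box GGGCGG, the PU.1-type motif GAGGAA, the octamer ATTTGCAT, the heat shock core GAANNTTC and the antioxidant response core TGACNNNGC. Of these 5 motifs, only the GC box occurs in the 3 windows shown. Shorter letters such as GGAA, which do occur there, were not marked. The other BTK start, whose window lies toward RPL36A and is not printed, has 3 GC boxes, 2 PU.1-type motifs and a GC content of 60.4%.
BTK, chrX:101386192-101386441: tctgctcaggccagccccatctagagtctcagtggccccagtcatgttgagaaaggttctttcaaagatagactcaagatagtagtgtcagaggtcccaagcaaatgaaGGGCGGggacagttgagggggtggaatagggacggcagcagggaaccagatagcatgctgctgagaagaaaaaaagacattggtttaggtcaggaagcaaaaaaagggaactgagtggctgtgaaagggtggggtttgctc
TEC, chr4:48269839-48270088: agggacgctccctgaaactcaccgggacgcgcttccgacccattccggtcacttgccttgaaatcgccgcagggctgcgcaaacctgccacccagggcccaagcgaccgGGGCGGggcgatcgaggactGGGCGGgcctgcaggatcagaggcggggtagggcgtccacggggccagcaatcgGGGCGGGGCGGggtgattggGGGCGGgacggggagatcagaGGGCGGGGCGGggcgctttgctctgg
TXK, chr4:48134251-48134500: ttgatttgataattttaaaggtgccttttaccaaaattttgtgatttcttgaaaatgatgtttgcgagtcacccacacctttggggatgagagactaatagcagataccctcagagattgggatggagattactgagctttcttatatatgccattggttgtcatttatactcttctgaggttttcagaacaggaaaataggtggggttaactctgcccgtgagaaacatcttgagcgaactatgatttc

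The GC box occurred once in the BTK window shown, 7 times in the TEC window, overlapping itself in 2 places, and not in the TXK window, with a GC content of 50.4%, 71.6% and 38.4%. Over the same 250 bases of 35116 RefSeq starts, 42.6% held the GC box, 23.6% the PU.1-type motif, 1.63% the octamer, 5.78% the heat shock core and 10.9% the antioxidant response core. These are matches of letters, and the data hold no measure of binding.

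Of the 12 factors, all tested, 1 was called higher and 1 lower in untreated MM1R (16.7%, against 2.97% of all genes). POU2F2, the octamer-binding factor OCT2 of B cells, was at 17.4 ± 4.65 CPM in untreated MM1S and 45.7 ± 9.89 CPM in untreated MM1R (SD, n = 3, log2 fold change 1.39, adjusted p = 0.00193, edgeR's quasi-likelihood test) and was called with WA too, and REL was lower as above. SPIB was called higher with WA only without both passage 16 cultures (log2 1.45, adjusted p = 0.00774, same edgeR test). SPI1, which encodes PU.1, was at 25.6 ± 4.06 and 35.4 ± 5.17 CPM (log2 0.47, adjusted p = 0.0932, same edgeR test), and SPIB, ETS1, ELF1, POU2F1, POU2AF1, SP1, SP3, NFKB1 and RELA, with log2 fold changes between -0.81 and 0.69, were not called. With WA, 3 of 12 were called in MM1R (POU2F1 higher, NFKB1 and RELA lower, 25% against 14% of all genes) and NFKB1 in MM1S (8.33% against 10.5%). With the block these were 6 of 12 in each line, against 29.1% and 24.1% of all genes, among them POU2F2, lower by 0.47 in MM1R and 0.45 in MM1S (adjusted p = 0.00513 and 0.0118, edgeR).

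None of the tested genes around BTK was called with it in the untreated lines. BTK lies on the minus strand of the X chromosome (GRCh37, chrX:100604326-100645784, 19 exons in the canonical transcript), 595 bases from TIMM8A and 27 bases from RPL36A, which starts in the other direction. TIMM8A and GLA, the nearest tested genes on either side, had log2 fold changes of 0.14 and 0.15 between the untreated lines (adjusted p = 0.721 and 0.525, edgeR's quasi-likelihood test). Among all 10 tested neighbours the smallest adjusted p was that of DRP2, at 1.38 CPM in untreated MM1S and 2.66 CPM in untreated MM1R (log2 0.95, adjusted p = 0.0352), which was called with WA (log2 1.29, adjusted p = 0.00843, and 0.0103 without both passage 16 cultures, same edgeR test). With WA, none of the 10 was called in either line without the block. With it, TIMM8A was called lower in MM1R (-0.56, adjusted p = 0.0185). CENPI was lower in MM1R and MM1S (-0.51 and -0.56, adjusted p = 0.00625 and 0.00413). ARMCX3 was higher in both lines (0.42 and 0.36) and ARMCX2 in MM1S (1.68, adjusted p from 0.00908 to 0.0227, all by edgeR). Without both passage 16 cultures, TIMM8A and CENPI were called in MM1R too (adjusted p = 0.0337 and 0.0118, edgeR). RPL36A, named outside the rule for its position, had 3 to 10 reads per library and was not tested.

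TEC (chr4:48137800-48271855, 18 exons) and TXK (chr4:48068410-48136267, 15 exons) lie on the same strand, 1532 bases apart. Across the 12 libraries the log2 levels of TEC and TXK had a Pearson r of -0.245, and within the 6 libraries of a line -0.0939 in MM1S and 0.639 in MM1R. Of the other 9 tested neighbours of TEC, none was called in any of the 4 comparisons. DCUN1D4 (log2 -0.71, adjusted p = 0.00296, edgeR's quasi-likelihood test) was below the limit on the fold change. BMX (chrX:15482369-15574652, plus strand, 19 exons) was silent. Its span overlaps that of PIR (chrX:15402921-15511687, minus strand), which encodes an iron-binding nuclear protein. PIR rose with WA in MM1R (log2 1.42, adjusted p = 0.0158, same edgeR test) and was at 0.76 in MM1S (adjusted p = 0.177, and 0.0486 with the block). None of the other 9 tested neighbours of BMX was called untreated. Between the lines with WA, its neighbour CLTRN was at log2 1.96 in MM1R against MM1S (adjusted p = 0.0368, same edgeR test), not called. Without both passage 16 cultures CLTRN was called there (log2 2.93, adjusted p = 0.00214, same edgeR test). It had 1 to 16 reads in MM1S with WA and 28 to 31 in MM1R with WA.

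**Figure D5:**
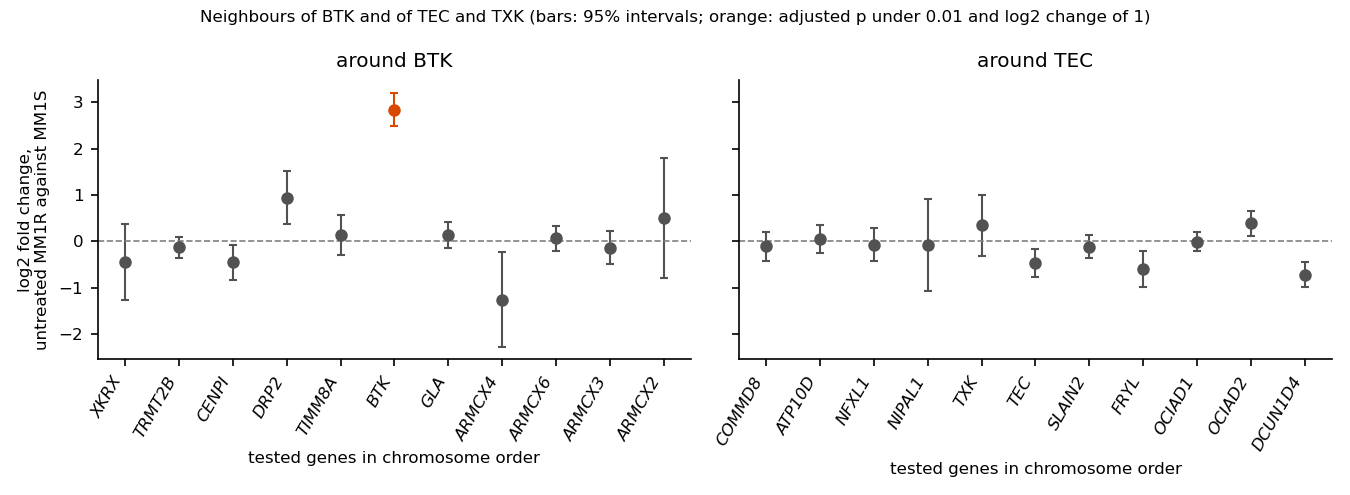
Log2 fold change of untreated MM1R against MM1S for BTK with its 10 nearest tested genes (left) and for TEC with its own, TXK included (right), in chromosome order. Points are edgeR estimates with 95% intervals, orange where called. BTK stands at 2.84 between TIMM8A at 0.14 and GLA at 0.15.

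The genes whose log2 CPM over the 12 libraries were most like that of BTK were MAGEA6 (Pearson r = 0.984), NLRP11 (0.983), LOC105372209 (0.982), R3HDM4 (0.981) and PRKX (0.98). These values reflect mostly the gap between the lines: MAGEA6, an antigen gene with near-identical paralogs, had 0 reads in all MM1S libraries and 53 to 93 in the MM1R libraries. Of the 5, PRKX, a cyclic AMP-related kinase gene on the X chromosome, followed BTK closely within the 6 libraries of each line (r = 0.89 in MM1S and 0.908 in MM1R). It was at 60.8 ± 6.51 CPM in untreated MM1S and 132 ± 5.80 CPM in untreated MM1R (SD, n = 3, log2 fold change 1.12, adjusted p = 2.09e-05) and fell with WA by 0.39 in both lines (adjusted p = 0.0247 in MM1R and 0.0331 in MM1S, edgeR's quasi-likelihood test), though in MM1S not without both passage 16 cultures (-0.28, adjusted p = 0.228). Most like TEC were TUT4 (0.973), CMTM1 (0.957), QKI, PBRM1 and MTUS1 (0.953 each), all with r of at least 0.897 within either line. TUT4, a terminal uridylyltransferase gene, was at 79.5 ± 1.12 CPM in untreated MM1S and 64.0 ± 11.8 CPM in untreated MM1R. These libraries share line, treatment and passage, so the correlations are descriptions.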

How the data were processed

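RNA of 12 cultures (RNeasy kit) was sequenced as paired 50-base reads. Per the labels and the study's methods, the authors used FastQC 0.11.5 and STAR 2.7.3a against hg19 and deposited read counts per gene. The annotation and strand setting are not given in the sources used here. Their table normalized with DESeq2 was not used. Counts were tested with edgeR 4.0.16 (R 4.3.3: TMM, filterByExpr with a minimum count of 10, quasi-likelihood, 1 fit of 12 libraries, Benjamini-Hochberg adjustment over 14085 genes), with DESeq2 1.42.0 and limma 3.58.1 as alternatives, and the fits were tested on simulated data. Pair changes used log2 of CPM plus 0.5. Replicates are separate cultures, and no pair of them differed by as little as sampling noise.

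Same-passage cultures of a line deviated together (r = 0.262 to 0.744 in MM1S, 0.221 to 0.427 in MM1R), so passage numbers were taken to pair them. Cultures of different passages ran from -0.653 to 0.419 in MM1S, where passages 22 and 23 crossed (0.347 and 0.419) lay above the pair of passage 22 (0.262), and from -0.38 to 0.106 in MM1R.

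Members and lists were chosen with earlier results of these data known. Named are the members, the hinge-6 kinases, up to 5 called genes per list and comparison by size of change, further list genes given as values, 5 tested neighbours on each side, the 5 genes most like BTK and TEC, the promoter factors and NR3C1, HMOX1 and HSPA1A. BLNK, SYK, PLCG2 and list genes called only in an alternative were named after their values were seen. Positions are GENCODE 44 lifted to GRCh37, the build of hg19. Reading frames were aligned with MAFFT 7.526, and promoters are RefSeq, GRCh38.p14. Some list genes are not reported here.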

Additional observations from a re-analysis of the deposited data

How the results depend on the processing

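BTK between the lines kept its direction and call in every alternative, with log2 fold changes of 2.75 to 3.02 untreated and 2.73 to 3.06 with WA when 1 of the 12 libraries was left out. TEC between the lines was not called in any, at -0.60 to -0.31 untreated and -0.40 to -0.24 with WA. BTK with WA in MM1R was not called with at least 10 reads required in every library (-0.47, adjusted p = 0.0537), and with 1 library left out it ran from -0.56 to -0.42. BTK with WA in MM1S became called without a filter on low counts (-0.54), by DESeq2 (-0.54) and with the replicate block: by limma-voom with passage as random block -0.52, by edgeR -0.52 and by DESeq2 -0.54. With 1 library left out it ran from -0.72 to -0.35 and was called without the WA culture of passage 22. TEC with WA in MM1S became called with the block (limma-voom -0.38, edgeR -0.38, DESeq2 -0.40). The block changed no other call of a member. The difference between lines in the effect of WA, near 0, changed sign for BTK with 1 library left out (-0.16 to 0.22, negative without untreated MM1S of passage 16 at -0.16, untreated MM1R of passage 7 at -0.02, MM1S with WA of passage 23 at -0.05 or 16 at -0.11, or MM1R with WA of passage 6 at -0.03) and without both passage 16 cultures (-0.28), and for TEC (-0.0051 to 0.29, negative without untreated MM1R of passage 7). TXK, uncalled, ran from -0.014 to 0.72 between the untreated lines, from -0.17 to 0.43 with WA in MM1R and from -0.63 to 0.044 with WA in MM1S when 1 library was left out, with the sign changed between the lines without untreated MM1R of passage 4, with WA in MM1R without untreated MM1R of passage 6 (-0.019) or 7 (-0.17), and with WA in MM1S without untreated MM1S of passage 16. Without both passage 16 cultures TXK was called between the lines with WA (1.05). Over the exon union, the mean log2 ratio of BTK to TEC was -4.40, -4.55, -1.06 and -1.36 in MM1S untreated, MM1S with WA, MM1R untreated and MM1R with WA, in place of -3.03, -3.18, 0.31 and 0.01. Counts of called genes moved by over 1.5 times between the untreated lines from 419 to 811 without a filter, 234 with 10 reads in every library and 755 without passage 16; between the lines with WA from 428 to 819, 222 and 817; for WA in MM1R from 1973 to 4094 (edgeR), 4108 (limma-voom) and 3418 (DESeq2) with the block; for WA in MM1S from 1476 to 3399, 3481 and 2917 with the block and 690 without passage 16; and for the difference between lines from 0 to 11 without a filter, 1 by DESeq2 and 6 by DESeq2 with the block. No paired analysis was possible because of the design for MM1R against MM1S, whose passage numbers differ, other than the random block, which changed no call there. With 1 library left out the counts were 268 to 537, 264 to 649, 950 to 2396, 726 to 1621 and 0. The cause was not tested for any of these.

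Of the tested members, BTK in MM1S has the least depth, at 95 to 211 reads per library.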
